A study of Mus musculus with 108 samples.

Results

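Bidirectional promoters, the stretches between neighbouring protein-coding genes that are read away from each other, were followed through a reporter screen of open chromatin. In the mm10 annotation, 21938 protein-coding genes formed 755 such pairs with starts at most 1000 bp apart. The pairs comprised 1489 genes, with a median gap of 129 bp between their starts. The members were the promoter fragments listed by the authors that overlapped the stretch between both starts, widened by 500 bp on either side. Overlapping stretches were joined, which left 734 windows, of which 21 held more than 1 pair. Of 780950 distinct promoter fragments recovered from sorted cells, 59609 (7.63%) were members. The comparison class was 19174 one-gene promoters, each the 500 bp on either side of a protein-coding start with no other such start within 1000 bp. These held 545212 distinct fragments, and the other 22.6% of fragments lay in neither kind of window.

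The purpose of the screen was to find open chromatin that can switch on a reporter while mouse embryonic stem (ES) cells become blood. DNA cut by the Tn5 transposase from open chromatin of 5 stages was cloned in front of a minimal Hsp68 promoter and a yellow fluorescent protein (YFP) gene. The constructs were placed in the Hprt locus of HM-1, a mouse ES cell line, so every group shared 1 cell line, locus and minimal promoter. The fragments were therefore read in the reporter and not at their own genes. Groups were cells of a stage sorted by YFP: undifferentiated ES cells, FLK1-positive hemangioblasts (HB), an early (HE1) and a later (HE2) hemogenic endothelium, and hematopoietic progenitors (HP). Replicates 1 to 4 were sorted into Negative, Low, Medium and High gates, and in replicate 5 Medium and High were collected together. Positive cells of a replicate are here all its gates other than Negative, and each of the 25 combinations of stage and replicate gave 1 positive and 1 Negative set of distinct fragments. The labels do not say whether replicates came from separate differentiations, so p-values measure only the spread between these samples, which may be technical.

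The deposited lists name each recovered fragment once, without read numbers. Promoter lists of the 95 sorted libraries held 353 to 86113 fragments. Replicates 1 and 2 were the deep ones and replicates 3 to 5 the shallow ones. Of the members, 38079 (63.9%) were seen in 1 replicate only, 20247 (34.0%) in 2 and 5 in all of them. Some libraries shared most of their members across gates or replicates. HE1 Low of replicate 4 and HE1 Negative of replicate 3 had 354 members in common, 85.1% of the smaller list, and HE1 Medium of replicate 2 and HE1 Negative of replicate 1 had 4590, or 79.8%. HE1 Low of replicate 4 also held 73 of the 111 members of HP Negative of replicate 3 (65.8%) and 19 of the 30 of HE2 Negative of replicate 3 (63.3%). By comparison, libraries of the same stage and replicate shared a median of 14.3%. In the 4 lists that overlap HE1 Low of replicate 4, itself included, 13.9% to 36.7% of members were identical to a plasmid fragment, against 49.4% to 95.4% in the other libraries and 79.3% of all distinct members. Results that use a stage with such a library are therefore also given without the 4 HE1 libraries, or without the HE2 and HP Negative sets of replicate 3.

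In a bidirectional promoter, a pair of genes is transcribed outward from a common stretch of open chromatin. Such promoters are often rich in CpG dinucleotides and poor in TATA boxes, and many serve housekeeping genes of DNA repair, mitochondria and RNA processing. Short sites for ETS factors, NRF1, YY1 and the CCAAT-binding factor NF-Y are known from promoters of this kind. The screen tests such DNA for the ability to raise transcription from another promoter.

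The sequences below are from mm10, plus strand, 5′ to 3′, and show the letters that pairs recovered in the screen carry between their starts. They run at most 30 bases into either gene. Capitals mark an ETS site (letters CCGGAAG), a box for NF-Y (letters CCAAT) or a YY1 core (letters ATGGCGG). Each was searched on both strands, so the ETS site may appear as CTTCCGG and the NF-Y box as ATTGG. GC boxes are left in lower case. The first ties with Rpgrip1l/Fto for the most positive sets, and its sites are not typical of the 12 pairs in the most positive sets. Cut the same way, the sequence of Rpgrip1l/Fto carries none of these sites. The same holds for Tfb2m/Cnst, Aasdhppt/Kbtbd3, Slc7a6os/Prmt7 and Arl16/Hgs. The others of the 12 carry a single kind of site. The second sequence stands for pairs with repeated CCAAT boxes, and the last 2 for pairs long known as bidirectional.
Prkar1b/Dnaaf5, chr5:139149971-139150253: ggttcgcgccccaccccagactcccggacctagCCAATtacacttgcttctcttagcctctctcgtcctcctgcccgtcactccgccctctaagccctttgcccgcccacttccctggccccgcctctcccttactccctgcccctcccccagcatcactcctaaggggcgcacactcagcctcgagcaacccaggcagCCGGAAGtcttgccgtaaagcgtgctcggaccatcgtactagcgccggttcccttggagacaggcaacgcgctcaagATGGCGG
Hsp90b1/Ttc41, chr10:86705510-86705809: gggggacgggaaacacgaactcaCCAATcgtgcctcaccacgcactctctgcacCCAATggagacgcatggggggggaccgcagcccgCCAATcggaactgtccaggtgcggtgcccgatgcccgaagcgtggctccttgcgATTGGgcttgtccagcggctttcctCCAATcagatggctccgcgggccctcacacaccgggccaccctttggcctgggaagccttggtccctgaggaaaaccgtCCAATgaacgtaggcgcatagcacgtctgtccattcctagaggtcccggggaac
Mrps12/Sars2, chr7:28741790-28742022: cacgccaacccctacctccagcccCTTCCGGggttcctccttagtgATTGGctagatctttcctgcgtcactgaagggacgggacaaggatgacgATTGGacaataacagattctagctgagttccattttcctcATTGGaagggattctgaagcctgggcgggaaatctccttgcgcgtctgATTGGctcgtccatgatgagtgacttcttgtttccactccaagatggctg
Brca1/Nbr1, chr11:101551925-101552179: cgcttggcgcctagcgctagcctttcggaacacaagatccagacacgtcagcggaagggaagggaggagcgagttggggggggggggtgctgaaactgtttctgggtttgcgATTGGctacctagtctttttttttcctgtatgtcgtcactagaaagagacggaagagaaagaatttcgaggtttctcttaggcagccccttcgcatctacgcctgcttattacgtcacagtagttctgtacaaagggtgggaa

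Counted from 1 at the left end, Prkar1b started at position 31 and Dnaaf5 at 253, Mrps12 at 31 and Sars2 at 203, and Brca1 at 31 and Nbr1 at 225. The Hsp90b1/Ttc41 sequence lay wholly between its starts. Prkar1b/Dnaaf5 held 1 site of each kind, with the YY1 core just inside Dnaaf5. Hsp90b1/Ttc41 had 6 CCAAT boxes, Mrps12/Sars2 4 with 1 ETS site, and Brca1/Nbr1 1. A match of letters describes the sequence and does not show that a factor bound there.

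Over the 300 bp around the middle of each window, the CCAAT box was found in 325 of the 734 pairs (44.3%) and the ETS site in 203 (27.7%). In one-gene promoters, where the middle is the gene start itself, the shares were 36.4% and 9.82%. Both stayed lower when only CpG-rich one-gene promoters were counted (33.4% and 17.9%, with CpG-rich taken as a CpG observed over expected ratio above 0.6 and a GC content above 50%). In CpG-rich pairs they were 43.1% and 32.4%. The GC box GGGCGG was found in 67.6% of pairs and 43.2% of one-gene promoters. Among CpG-rich windows it was found in 75.5% of pairs and 77.5% of one-gene promoters, which had a higher median GC content (67.3% against 64.3% in pairs). The TATA box TATAAA stood in 4.50% of pairs and 11.4% of one-gene promoters, and the NRF1 core GCATGCG in 7.90% and 3.85%. The YY1 core was found in 12.8% of pairs and 6.11% of one-gene promoters. Motifs of blood factors were less frequent in pairs than in all one-gene promoters, with the GATA motif AGATAA in 4.77% and 8.71%. The RUNX motif TGTGGTT stood in 2.59% and 4.73%, and the CRE palindrome TGACGTCA, in contrast, in 4.50% and 2.19%. Within CpG-rich windows the order turned for the GC box and for the GATA motif, the latter at 3.58% of pairs and 2.47% of one-gene promoters. The RUNX motif stood in 2.21% and 2.37% there, and the remaining motifs kept their order, with the NRF1 core in 9.37% of pairs and 7.18% of one-gene promoters, the YY1 core in 14.8% and 11.98%, the CRE in 5.28% and 3.76% and the TATA box in 2.04% and 3.81%. The stretch of a pair was centred between its starts and that of a one-gene promoter on its start. The 2 kinds were thus not placed alike, and the part of this in the shares was not tested. These shares describe the genome and not the screen.

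Nearly all bidirectional promoters entered the screen and came back from sorted cells. The plasmid lists held fragments of 731 of the 734 pairs (99.6%), and sorted cells returned fragments of 701 (95.5%). Of one-gene promoters, 91.0% were in the plasmid lists and 10598 (55.3%) were recovered. Recovery here counts the promoter lists only. The distal lists of sorted cells held a further 9842 distinct fragments in one-gene windows and 77 in pair windows. How many one-gene promoters without a promoter fragment these cover was not counted. A pair yielded a median of 69 distinct fragments and a one-gene promoter 4. Pairs had a fragment in a median of 14 of the 25 positive sets (interquartile range 12 to 16), against 3 (0 to 13), and in 11 Negative sets against 1. Among CpG-rich windows the medians were closer, with 14 positive sets in 587 pairs and 13 in 8296 one-gene promoters. The plot of positive sets shows the pairs gathered around that median and the one-gene promoters divided between 0 and a hump at slightly lower numbers.

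**Figure D1:**
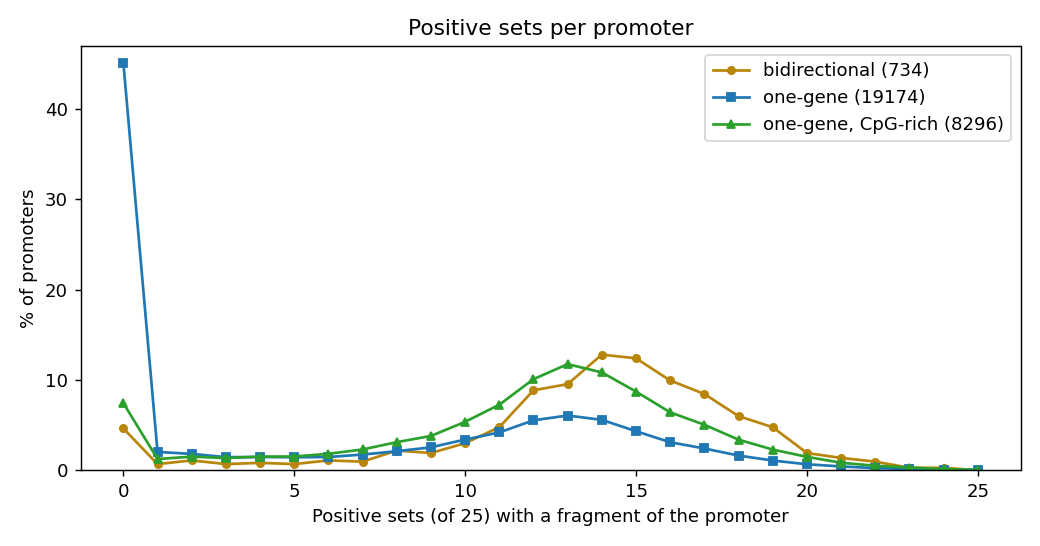
Share of bidirectional, one-gene and CpG-rich one-gene promoters (vertical axis, percent) by the number of the 25 positive sets in which they had a fragment (horizontal axis). Pairs peak at 14 sets, while 45.1% of all one-gene promoters and 7.44% of the CpG-rich ones lie at 0.

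The denser recovery of pairs was already present in the cloned material. Sorted members amounted to 67.9 distinct fragments per kb of window, 2.39 times the 28.4 per kb of one-gene promoters. In the plasmid lists, where every fragment in a window was counted, the densities were 937 and 405 per kb, a ratio of 2.32. Between CpG-rich windows both ratios were smaller and again alike, at 1.34 in sorted cells and 1.32 in plasmids. Per 100 distinct plasmid fragments there were 7.24 distinct sorted fragments in pairs and 7.02 in one-gene promoters. Some of these match no plasmid fragment. Of the plasmid fragments themselves, 5.75% in pairs and 5.53% in one-gene promoters were returned. All of these sorted counts take the promoter lists only. Across the 734 pairs, the number of plasmid fragments and of sorted fragments had a Spearman correlation of 0.811, the number of plasmid fragments and of positive sets one of 0.638, and positive and Negative set numbers one of 0.826. The points share libraries, sequencing depth and base composition, so the correlations are a description only. Pairs with more positive sets thus tended to have more cloned fragments and more Negative sets.

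Along the windows, positive and Negative fragments had the same shape. Coverage by fragments of positive cells peaked midway between the starts, at a mean of 28.3 fragments per pair, and that of Negative cells at 11.4 in the same place. At 300 bp on either side positive coverage had fallen to 10.8 and 11.0. Pairs were laid with the minus-strand gene on the left, which does not order the genes otherwise, so the mean profile says nothing about the symmetry of a single pair. One-gene promoters, laid along their transcription, peaked at 9.93 positive fragments, 20 bp inside the gene, with 3.15 at 300 bp upstream and 4.27 at 300 bp downstream.

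**Figure D2:**
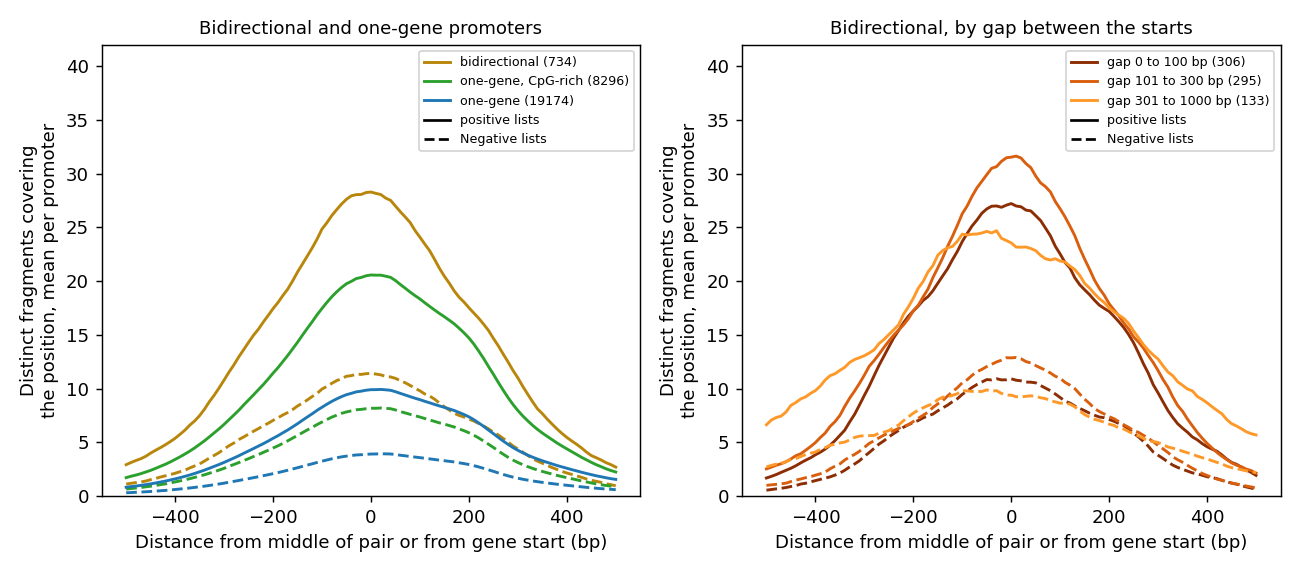
Mean number of distinct fragments covering each position (vertical axis) by distance in bp from the middle of a pair or from a one-gene start (horizontal axis), with solid lines for positive and dashed lines for Negative sets. On the left, pairs peak at 28.3 (positive) and 11.4 (Negative) at 0 bp and one-gene promoters lower, and on the right coverage of pairs is split by the gap between the starts, with positive peaks of 27.2, 31.6 and 24.7 from the narrowest class to the widest.

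The distance between the starts changed where fragments lay more than how often a pair was recovered. With starts at most 100 bp apart (306 pairs), 30.3% of members spanned both starts. At 101 to 300 bp (295 pairs) the share was 8.87%, and at 301 to 1000 bp (133 pairs) 0.544%. Members had a median length of 209 bp, shorter than the gap in the widest class. In the widest class, 62.3% of members were centred between the starts, a stretch that made up 35.1% of the windows. Positive sets had medians of 14, 15 and 15 in the 3 classes, and 86.9%, 84.4% and 85.7% of the pairs were positive at all 5 stages. CpG-rich windows made up 91.5%, 83.1% and 46.6% of them. Windows of wider pairs are longer. The classes had medians of 59, 76 and 83 distinct fragments per pair, and 67.5, 71.8 and 61.8 distinct fragments per kb of window. Per pair, the wide class was thus recovered in about as many positive sets as the narrow ones, with fewer CpG-rich windows. Per kb it had the lowest density.

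Bidirectional promoters were recovered throughout differentiation. Of the 734 pairs, 629 (85.7%) had a fragment in positive cells of all 5 stages, compared with 7804 one-gene promoters (40.7%). In CpG-rich windows the shares were 90.8% and 76.8%. Replicates 1 and 2 alone gave 628 such pairs and replicates 3 to 5 alone gave 177, so the count rests on the 2 deep replicates. Without all 6 libraries named above the counts were again 701 recovered and 629 positive at all 5 stages. Positive cells of ES and no later stage held 3 pairs, the histone genes Hist1h2ba/Hist1h2aa, the methionine and choline enzymes Bhmt2/Dmgdh, and the interferon-induced Ifit1bl2/Ifit1, which are named because they are all of that class. Another 31 pairs (4.22%) were positive after ES only, and 34 at no stage. With positive and Negative cells of every stage cut to the same 38596 fragments, 85.1% to 86.7% of pairs were seen in positive cells of a stage and 84.6% to 86.2% in Negative cells. One-gene promoters gave 40.4% to 41.1% and 40.01% to 40.6%.

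The comparison of sorted gates asked whether bidirectional promoters were more frequent among fragments from YFP-positive cells. For this the bidirectional share was used, the percent of fragments in windows of either kind that lay in a pair window. ES positive sets had shares of 10.2%, 10.2%, 9.73%, 11.4% and 9.84% in replicates 1 to 5, and ES Negative sets 10.5%, 10.3%, 9.69%, 9.95% and 9.57%. The sets overlapped and the means were 10.3% ± 0.662 and 10.0% ± 0.397 (SD, n = 5 each). The difference of 0.261 percentage points was smaller than the replicate spread (two-sided exact permutation p = 0.548, Benjamini-Hochberg adjusted p = 0.685 over 5 stages).

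In HB cells the positive sets had 10.1%, 9.91%, 9.65%, 10.0% and 10.5%, and the Negative sets 10.0%, 10.4%, 10.6%, 11.6% and 10.9%. Positive was lower in 4 of 5 replicates, by 0.682 points in the mean, which failed the correction over stages (two-sided exact permutation p = 0.0476, adjusted p = 0.119). HE1 gave 9.77%, 9.94%, 9.12%, 9.87% and 9.97% in positive sets and 10.1%, 10.0%, 9.88%, 9.97% and 12.6% in Negative sets. Positive was lower in 5 of 5 replicates, with the same p = 0.0476 and adjusted p = 0.119 in the exact permutation test. The mean difference of -0.764 points was -0.303 without replicate 5, whose Negative set stood apart, and -0.942 without the 4 HE1 libraries that share fragments (exact permutation p = 0.25, with 3 Negative sets left).
In HE2 the means were 9.81% ± 0.579 and 9.26% ± 1.18 (SD, n = 5, exact permutation adjusted p = 0.675), and the difference of 0.549 points ran from 0.0533 to 0.745 when 1 replicate was left out. Without the HE2 Negative set of replicate 3, the lowest, it was 0.0595 points (exact permutation p = 0.817). In HP the means were 9.91% ± 0.739 and 9.77% ± 0.648 (exact permutation p = 0.722), with a difference of 0.147 points that was 0.0158 without the HP Negative set of replicate 3. Averaged over stages, positive and Negative sets had 9.95% ± 0.404 and 10.05% ± 0.420 (SD, n = 5), a difference of -0.0979 points (exact two-sided permutation p = 0.698), or -0.228 without all 6 libraries (exact permutation p = 0.357). The plasmid lists, measured the same way, had 8.72% (pDONR) and 8.62% (pSKB, the reporter vector) for ES, and 8.98% to 10.3% for the later stages, and the 3 control lists of HM-1 cells without a reporter library had 9.18% to 10.0%. The smallest of the positive and Negative sets, HE2 Negative of replicate 3, held 30 members. Its share of 7.30% had a 95% Wilson interval of 5.16% to 10.2%, which covers counting error only. A p that misses the threshold does not show that the shares were equal.

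**Figure D3:**
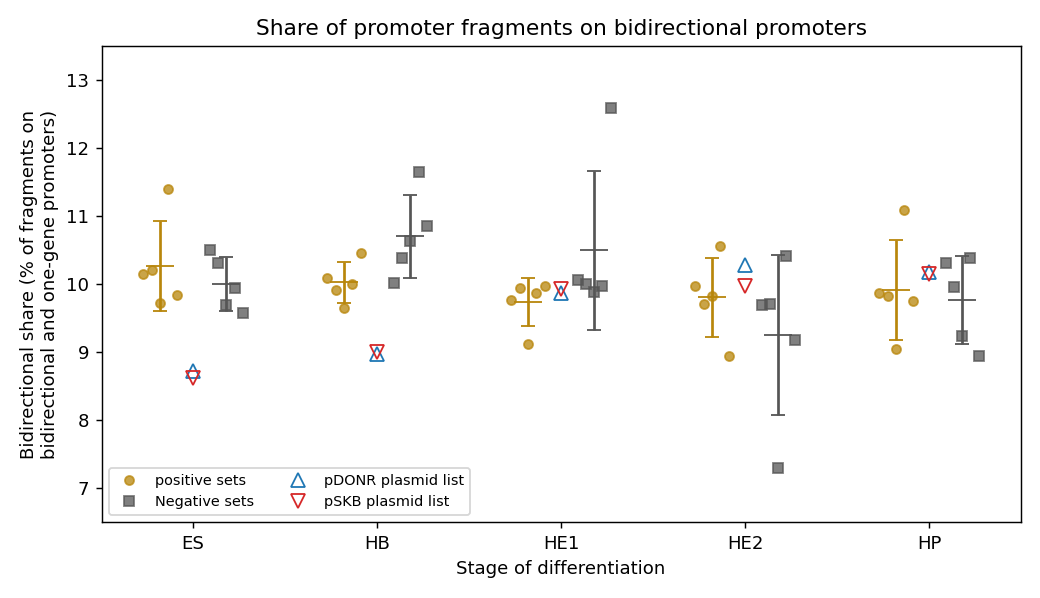
Bidirectional share (vertical axis, percent of fragments in windows of either kind) in positive and Negative sets of each stage, with 1 point per replicate and bars for the mean and SD of 5 replicates. The groups overlap at every stage, and 1 HE1 Negative set, replicate 5, lies at 12.6%. Triangles mark the pDONR and pSKB plasmid lists of the stage, counted over all their fragments in the windows.

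The comparison of bright with dim gates asked whether the share changed with the strength of YFP. In HE2, High and Medium/High gates had 9.99%, 9.52%, 9.05%, 8.82% and 8.33% in replicates 1 to 5, and Low gates 9.95%, 10.0%, 11.2%, 11.4% and 9.25%. The brighter gate was lower in 4 of 5 replicates. The difference of -1.22 percentage points failed the correction over stages (two-sided exact permutation p = 0.0476, adjusted p = 0.238). These HE2 gates held as few as 27 members in replicate 4. The brighter gate was also lower in 4 of 5 replicates at each of the other stages, where the exact permutation p was 0.571 to 0.897. In HE1 the mean difference was nevertheless 0.276 points, with the High gate of replicate 4 at 11.9%. Averaged over stages the brighter gate was lower in 5 of 5, with a difference of -0.334 points (9.84% ± 0.316 against 10.2% ± 0.641, SD, exact permutation p = 0.373). With replicates paired the exact permutation p was 0.0625, the smallest that 32 sign patterns allow, so this design could not pass. Between positive cells of adjacent stages the share moved by -0.292 to 0.109 points, with exact two-sided permutation p of 0.222 to 0.913. Negative sets differed by 0.702 points from ES to HB (exact permutation p = 0.0556, adjusted p = 0.222), and by -1.24 points from HE1 to HE2 (exact permutation p = 0.135, adjusted p = 0.270; -0.751 without the HE2 Negative set of replicate 3).
The gap between positive and Negative sets itself differed from HE1 to HE2 by 1.31 points (exact permutation p = 0.0317, adjusted p = 0.0952), which also did not pass. Without all 6 libraries it was 0.686 points (exact permutation p = 0.629), with 3 and 4 replicates left.

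A second measure was the share of members that spanned both starts. The rule for members used the positions of the starts but not the gate of a fragment. In HE2 it was 14.4%, 14.4%, 15.2%, 20.8% and 20.3% in positive sets and 13.7%, 13.9%, 13.3%, 11.0% and 15.1% in Negative sets. Positive sets were higher in 5 of 5 replicates, by 3.59 points, which failed the correction over stages (two-sided exact permutation p = 0.0397, adjusted p = 0.198). Most of that came from replicates 4 and 5, and without replicate 4 the difference was 2.03 points. Without the HE2 Negative set of replicate 3 it was 3.57 points (exact permutation p = 0.119, adjusted p = 0.595). Adjusted p was 0.889 at each of the other stages in the exact permutation test. In HE1 the difference without the 4 libraries was 5.11 points (exact permutation p = 0.125, adjusted p = 0.312). Among positive sets, replicate 4 had longer members, with a mean over stages of the median length of 252.7 bp against 195.3 to 210 bp in the other replicates, and the largest both-start share, 21.4%. The 252.7 bp includes 330 bp in HE1, where the set holds HE1 Low of replicate 4. Its Negative sets had 233.3 bp and the lowest both-start share of Negative sets, 14.0%. Negative sets of replicate 3 were the longest, at 291.1 bp, with 16.8%. The part of length in this result was not tested.

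**Figure D4:**
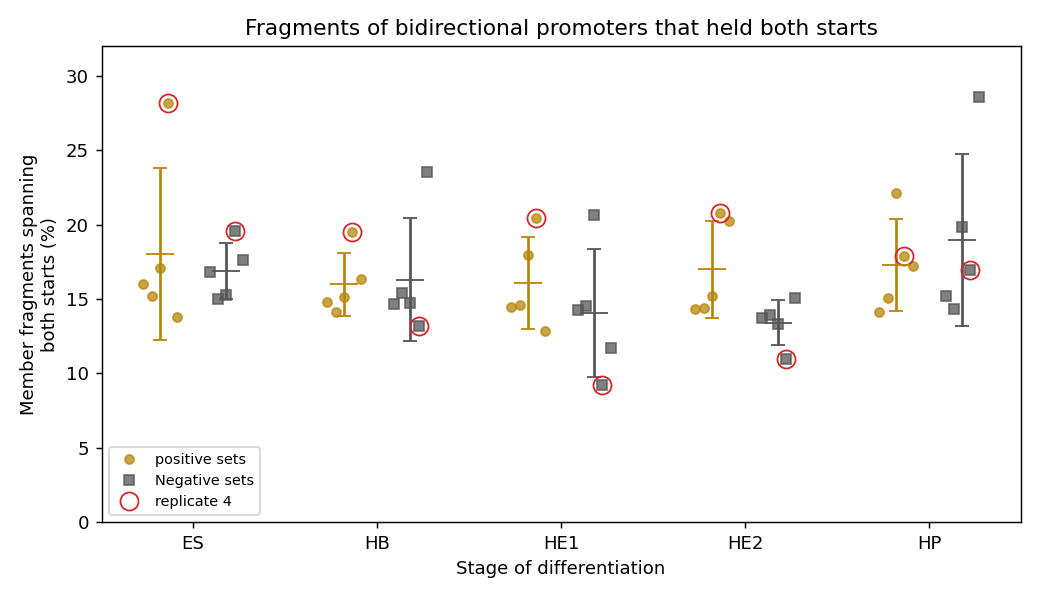
Percent of members that span both gene starts (vertical axis) in positive and Negative sets of each stage, with 1 point per replicate and bars for the mean and SD of 5 replicates. In HE2 the positive mean is 17.0% and the Negative mean 13.4%, and replicate 4 of the ES positive sets stands at 28.2%. Red rings mark replicate 4.

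Identical fragments were often found on both sides of the sort. Of the 59609 members, 37960 (63.7%) were seen in positive cells only, 5996 (10.1%) in Negative cells only and 15653 (26.3%) in both. Positive sets were the union of several gates, so these shares do not measure activity. They pool all stages and replicates, with the libraries named above that share most of their members across gates. The shares without those libraries were not computed. Identical fragments of a stage shared by the positive and Negative set of a replicate made up on average 22.7% (ES) to 37.2% (HE2) of the smaller set. In one-gene promoters the means were 24.4% to 32.6%.

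Single bidirectional promoters were then compared, as log2 of distinct fragments per 10000 listed promoter fragments with 1 added. Across 16 comparisons, limma called no pair at an adjusted p of 0.05. Between positive and Negative cells it tested 599, 606, 591, 557 and 546 pairs, in the order ES, HB, HE1, HE2, HP. The share of all promoters called was 0% at each stage, and pairs with an unadjusted p under 0.05 numbered 10, 5, 1, 5 and 9. Of all promoters tested, 116 of 7423, 90 of 7710, 24 of 7668, 38 of 6557 and 47 of 6100 had such a p in limma. At each stage both counts were below the share of 0.05 that uniformly distributed p-values would give. From ES to HP, pairs had median log2 differences of 0.11, 0.10, 0.03, 0.20 and 0.01, beside 0.07, 0.11, 0.02, 0.16 and -0.02 in one-gene promoters. The HE1 medians were 0.51 and 0.48 without the 4 HE1 libraries, where 3 Negative sets were left and fewer promoters could be tested. Those 3 sets held 27673, 1123 and 790 listed fragments, and each set counts alike whatever its depth. The part of depth in these medians was not tested. Without the Negative sets of replicate 3, the medians were 0.11 and 0.08 in HE2 and -0.08 and -0.09 in HP, and limma called no pair (1 and 4 pairs at an unadjusted p under 0.05). On the means over stages, 678 pairs were tested, 0% of promoters were called and 5 pairs had an unadjusted p under 0.05. Of all promoters, 120 of 10069 had such a p. High against Low gates likewise gave 0% called at each stage and over stages by limma, with 7, 0, 0, 0 and 1 pairs at an unadjusted p under 0.05 from ES to HP. Of all promoters tested, 44 of 6052, 30 of 5972, 16 of 6378, 4 of 5802 and 15 of 4195 had such a p. Without the 4 HE1 libraries, limma called no pair in HE1 either, with 2 of 290 pairs at an unadjusted p under 0.05 for positive against Negative and 1 of 536 for High against Low. Of all promoters tested there, 25 of 2946 and 18 of 5972 had such a p. The deep replicates did not rank the pairs alike. Over 425 to 597 pairs, the log2 ratio of positive to Negative fragments in replicate 1 and that in replicate 2 had a Spearman correlation of -0.193 to 0.0895, as a description over pairs that share libraries. The -0.193 was that of HE1, and the other stages had -0.0322 to 0.0895. In HE1 the Negative set of replicate 1 shared 4590 members with the Medium gate of replicate 2, which bears on both ratios. The HE1 value without these libraries was not computed.

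Adjacent stages gave the only promoters called by limma, and none was bidirectional. Between HB and ES 0.0117% of promoters were called, 1 of 8552, with 13 of 637 pairs and 211 of all promoters at an unadjusted p under 0.05. Between HE1 and HB it was 0.0114%, 1 of 8737, with 17 of 647 pairs and 188 of all promoters at an unadjusted p under 0.05. The later comparisons had 0% called, and 5 and 6 pairs at an unadjusted p under 0.05, beside 69 of 8845 and 91 of 8078 promoters. Without the 4 HE1 libraries, 0 promoters were called by limma for HE1 against HB (134 at an unadjusted p under 0.05, 13 of them pairs). The pair with the smallest p was Hjurp/Trpm8, named for that reason after its values were seen. Hjurp is the chaperone that loads the centromeric histone CENP-A, and Trpm8 is the cold-sensing ion channel.

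Positive sets of ES held 14, 18, 2, 5 and 0 fragments of Hjurp/Trpm8 in replicates 1 to 5, those of HE1 33, 28, 4, 1 and 1, and those of HE2 34, 26, 2, 0 and 0. In HB and in HP every positive set was at 0. The Negative sets had the same pattern, with 4, 9, 5, 0 and 0 in ES, 18, 7, 0, 0 and 0 in HE1, and 0 throughout HB and HP. The limma estimate was 2.20 (log2, SE 0.63, adjusted p = 0.992) for HE1 against HB and -1.60 (adjusted p = 0.826) for HB against ES. It depends on the added 1, since HB was at 0. Without replicate 5 the latter was -2.003 with an adjusted p of 0.0377 by limma, and this was the 1 bidirectional promoter called under any alternative. The plasmid lists of HB and HP held 322 and 373 distinct fragments of this window. A count of 0 among 23593 member listings of HB allows a share of up to 0.0127%, a limit that covers counting error only and takes the listings of overlapping libraries as independent.

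Further pairs were missing from HB and HP in the same way. Of 638 pairs with at least 20 distinct fragments, 25 (3.92%) were at 0 in every positive and Negative set of at least 1 stage, and 12 of them in exactly HB and HP. Besides Hjurp/Trpm8 these included Alyref/Anapc11 (an mRNA export adaptor and a subunit of the anaphase-promoting complex), Psma7/Ss18l1 (a proteasome subunit and a chromatin regulator), Trip4/Csnk1g1 (a transcriptional coactivator and a casein kinase), Ftsj3/Psmc5 (ribosome biogenesis and a proteasome ATPase), and 2 histone pairs, Hist1h2ak/Hist1h2bn and Hist1h2an/Hist1h2bp. Their windows had 97 to 322 distinct plasmid fragments in the HB lists and 101 to 389 in the HP lists. Another 6 pairs were at 0 in ES alone, among them Nek8/Tlcd1, Hdac3/Rell2 and Lig4/Abhd13. One-gene promoters had 425 such cases of 7239 (5.87%), 150 of them in exactly HB and HP. The pairs were chosen for zeros in both positive and Negative sets, so these zeros do not tell active from inactive fragments. The sources used here do not say whether a list was filtered on peaks of the same stage, and the part of such a step in these zeros was not tested.

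The pairs found in the most positive sets, 12 by rule, are described without a test because that number chose them. Above 21 sets there were 11 pairs, and the last was taken from 10 pairs tied at 21 as the one with the most distinct fragments. Prkar1b/Dnaaf5, a regulatory subunit of protein kinase A and an assembly factor of ciliary dynein, was in 24 of 25 positive and 18 Negative sets. Its positive sets held 35, 39, 8, 5 and 2 fragments in ES and 58, 60, 2, 4 and 1 in HE1, and its Negative sets 1, 15, 4, 0 and 0 in ES and 36, 14, 1, 2 and 3 in HE1. The deep replicates thus decided the numbers. Rpgrip1l/Fto, a protein of the ciliary base and an RNA demethylase, was also in 24 positive sets. Casc1/Etfrf1 and Tfb2m/Cnst, the latter with a mitochondrial transcription factor, were in 23. Those in 22 sets included Hsp90b1/Ttc41 (an endoplasmic reticulum chaperone), Styxl1/Mdh2 (mitochondrial malate dehydrogenase), Zfp142/Bcs1l (an assembly factor of respiratory complex III) and Abce1/Anapc10 (a ribosome recycling factor).
Hadha/Hadhb, which encode both subunits of the mitochondrial trifunctional protein of fatty acid oxidation, reached 22 sets with only 56 distinct fragments, while Arl16/Hgs reached 21 with 297. The 12 pairs had 80 to 297 distinct fragments apart from Hadha/Hadhb, and gaps of 1 bp (Slc7a6os/Prmt7) to 362 bp (Aasdhppt/Kbtbd3).

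**Figure D5:**
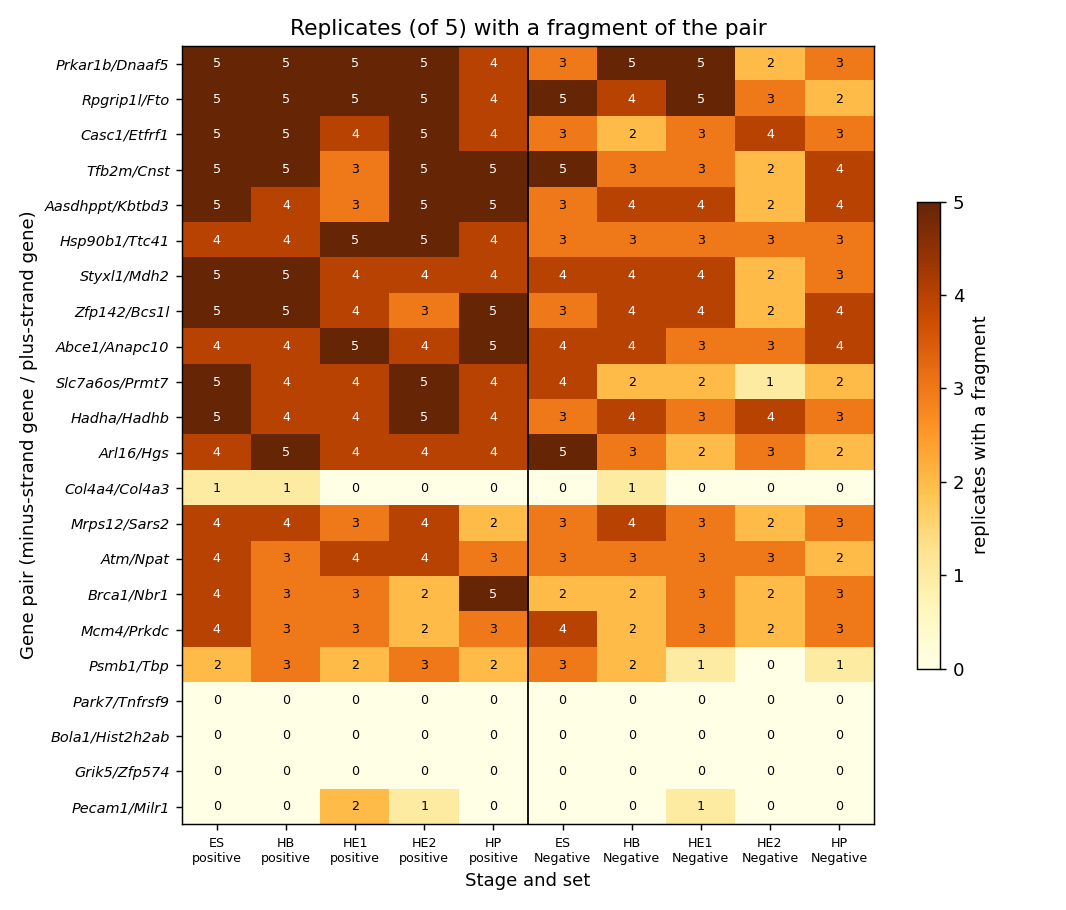
Number of replicates, of 5, with a fragment of each named pair (rows) in the positive and Negative sets of each stage (columns), with darker cells for more replicates. Prkar1b/Dnaaf5 is filled in 24 of 25 positive sets, and Col4a4/Col4a3 in 2.

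Of 15 well-known pairs on a fixed list, 6 met the rule, and all 6 were recovered. Mrps12/Sars2 (mitochondrial ribosome and seryl-tRNA synthetase), Atm/Npat (a DNA damage kinase and a regulator of histone genes) and Brca1/Nbr1 (homologous recombination and autophagy) were in 17, 18 and 17 positive sets. Brca1/Nbr1 had 10, 20, 3, 0 and 1 positive fragments in ES and 0, 5, 1, 0 and 0 Negative ones, and in HE1 31, 18, 0, 1 and 0 against 15, 8, 1, 0 and 0. Mcm4/Prkdc (a subunit of the replicative helicase and the catalytic subunit of DNA-dependent protein kinase) was in 15 and Psmb1/Tbp (a proteasome subunit and the TATA-binding protein) in 12. Col4a4/Col4a3, chains of the collagen of basement membranes, was the exception, with 5 distinct fragments, found in 1 ES and 1 HB positive set.

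By function, pairs with a gene of DNA repair or replication (28), of mitochondria (46) or of RNA processing (45) were all recovered, and 26, 43 and 42 of them were positive at all 5 stages. Their median positive sets were 15, 15 and 16, beside 14 over all pairs. The highest numbers in these lists were 19, 20 and 20 sets, as in Palb2/Dctn5, Mrps18b/Ppp1r10 and Rita1/Ddx54. The lowest were 5, 5 and 2. Histone pairs were recovered in 11 of 14 cases, with 7 positive at all 5 stages and a median of 10.5 positive sets. These genes lie in clusters of near-identical copies, and per the methods only uniquely aligned reads were kept, so their numbers are uncertain. Ribosomal protein pairs ranged from 21 sets for Rpl9/Lias to 0 for Rnf151/Rps2, and pairs with a proteasome or chaperonin gene had a median of 13. None of these lists was tested.

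Of 51 genes listed as defining blood and endothelium, 1 belonged to a bidirectional pair, beside 6.79% of all protein-coding genes, and this difference was not tested. The pair was Pecam1/Milr1, the endothelial adhesion molecule CD31 and an immunoglobulin-like receptor of mast cells, with starts 598 bp apart. The pair had 4 distinct fragments in sorted cells and 87 in the plasmid lists. Its positive sets held 1 and 3 fragments in HE1 of replicates 1 and 2 and 1 in HE2 of replicate 1, and its Negative sets 1 in HE1 of replicate 1. All sets of ES, HB and HP were at 0. Counts this low do not separate the stages.

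Of the 734 pairs, 33 returned no promoter fragment from sorted cells. They had a median of 33 distinct plasmid fragments, against 1058 in recovered pairs, and 3 had none. Their median CpG observed over expected ratio was 0.251. Park7/Tnfrsf9 was the exception, with 767 plasmid fragments. Park7 encodes DJ-1, a protein of oxidative stress defence, and Tnfrsf9 a costimulatory receptor of T cells. Its window held 77 distinct fragments of the authors' distal lists, found in 14 positive and 11 Negative sets and at all 5 stages. It was the 1 pair window with distal fragments, so it was recovered but assigned to the other list. Bola1/Hist2h2ab and Grik5/Zfp574 followed, with 419 and 393 plasmid fragments and none in sorted cells.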

How the data were processed

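DNA of reporter fragments was sequenced from sorted cells. Per the submitters' processing notes and the methods, the authors used Trim Galore, Bowtie2, SAMtools, bedtools and HOMER on mm10, removed fragments found in control PCR, kept those found in plasmids, limited them to open chromatin peaks and divided them by distance from transcription starts. In the deposited lists these filters are not exact: a plasmid list holds the same interval for 79.3% of the members, and an HM-1 control list for 179. The methods give a version for Bowtie2; those of the other tools, and whether each list was filtered on peaks of the same stage, are not given in the sources used here. Plasmid and control lists were deposited by the authors with a whole-number count of reads per fragment. Sorted lists were deposited as intervals only, each fragment once, without counts, so read depth is unknown and no count model was used. PCR can drop fragments.

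Starts of sorted fragments were moved by 1 bp to match the plasmid lists. Genes were GENCODE M21 protein-coding records. A set was the union of a replicate's lists. Shares were compared by exact two-sided permutation tests over 252 splits of 5 against 5 (smallest possible p 0.00794), with Benjamini-Hochberg adjustment over stages or transitions. Single promoters with a fragment in at least 4 of 10 sets were tested by limma 3.58.1 (lmFit, eBayes with trend) in R 4.3.3, adjusted over all promoters tested. Other steps used Python 3.11.15, numpy 2.4.6, pandas 2.3.3, scipy 1.17.1 and matplotlib 3.10.9. Tests were checked on simulated data.

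The members, gene lists and named pairs were chosen with earlier results of these data known. The rule named the 12 pairs in the most positive sets, up to 3 pairs per direction and comparison past the threshold (there were none), well-known pairs (1 of the pairs first listed is not reported here), the 3 pairs without sorted fragments with the most plasmid fragments, and pairs with a blood or endothelial gene. Same-numbered sets deviated from their group means with correlations of -0.041 to 0.426 over 14 comparisons, and all 5 lay above 0.1 in 3 (positive against Negative in ES and HB, and HB against ES). The p-values given are from unpaired tests unless pairing is named. Pairing the sets by number was an alternative in every comparison, and with it limma called no pair. Positive sets correlated best with the Negative set of their own number in 5 of 5 cases in HE2 and HP. In ES and HB this held in 4 of 5, and in HE1 in 1. Alternatives were a gap of 300 bp, plasmid-identical fragments, High gates only, means over libraries, leaving out replicates or the 4 HE1 libraries, the replicate block, and other pseudocounts, minimums and scaling. The restriction to replicates 1 and 2 or 3 to 5, leaving the HE1 libraries out of the recovery counts and the limma fits, and leaving out the HE2 and HP Negative sets of replicate 3, were chosen after seeing the data.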

Additional observations from a re-analysis of the deposited data

Results flagged for a closer look

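In 30 combinations of a group of 5 sets and a measure, 7 held a set whose distance from the nearest of the others was large against the range of its group. Chance flags about 1 in 20 such combinations. In ES, the positive set of replicate 4 had a bidirectional share of 11.4%, with the others at 9.73% to 10.2%, and 28.2% of its members spanned both starts, against 13.8% to 17.1%. The HE1 Negative set of replicate 5 had a share of 12.6% (others 9.88% to 10.1%), the HE1 positive set of replicate 3 one of 9.12% (9.77% to 9.97%), and the HE1 High gate of replicate 4 one of 11.9% (9.56% to 9.84%). The HP High gate of replicate 1 had 9.92%, against 9.56% to 9.66%. In the HB Negative set of replicate 5, 23.5% of members spanned both starts, against 13.2% to 15.4%.

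The distal lists, outside the membership rule, held 77 distinct fragments in a pair window, all at Park7/Tnfrsf9. In one-gene windows they held 9842 distinct fragments, which the one-gene recovery figures leave out.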

How the results depend on the processing

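No bidirectional share or both-start difference passed at an adjusted p of 0.05 under any of 344 alternatives, and 27 changed sign. Of the 344 alternatives, 25 used the replicate block, where 32 sign patterns allow no exact permutation p under 0.0625 and none could pass. The smallest adjusted p of the other 319 was 0.114 (exact permutation tests). It was reached on leaving out a replicate. With 4 sets against 4 there are few splits, so a lone difference could not pass the adjustment in those runs. The positive minus Negative share over stages was 0.251 points with plasmid-identical fragments only, and with High gates only it was -0.113 in HE2 and -0.0878 in HP. With a gap of at most 300 bp, High minus Low was 0.0146 in ES and 0.0242 in HB, and the both-start difference in HB was 0.0826 (0.468 as a mean over libraries). The positive share changed from HE1 to HE2 by -0.159 (plasmid-identical), -0.0950 (mean over libraries) and -0.101 (without 4 HE1 libraries), and from HE2 to HP by -0.110 and -0.0304 under the first 2. The Negative share from HB to HE1 changed by 0.142 without the HE1 libraries. Leaving out each replicate, positive minus Negative ran from -0.0346 to 0.413 in ES and -0.0189 to 0.294 in HP, High minus Low from -0.429 to 0.0911 in HB, -0.178 to 0.430 in HE1 and -0.885 to 0.183 in HP, the positive share from -0.456 to 0.0476 (ES to HB), -0.0870 to 0.347 (HE1 to HE2) and -0.0638 to 0.333 (HE2 to HP), the Negative share from -0.693 to 0.158 (HB to HE1), and both-start differences from -0.660 to 2.44 in ES, -1.97 to 1.41 in HB, -0.319 to 3.18 in HE1 and -2.68 to 0.735 in HP. The cause was not tested. In limma, 1 of 182 alternatives called a pair. Promoters called numbered 0 instead of 1 for HB against ES and for HE1 against HB with a fragment in at least 6 sets, near-identical fragments counted once, no scaling or the replicate block, and for HE1 against HB also with a pseudocount of 0.25, at least 2 sets or without the HE1 libraries. Leaving out a replicate gave 0 to 11 and 0 to 1 promoters, and 0 to 1 pairs for HB against ES. With the replicate block, the exact permutation p of the share was 0.0625 in HE1 (the smallest possible, adjusted p = 0.312) and 0.125 in HB. Pairs positive at all 5 stages numbered 177 with replicates 3 to 5 alone. Shallow lists limit these replicates.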
